A study of Mus musculus with 8 samples.

Results

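The genes described here encode enzymes of glycolysis and lactate dehydrogenase A: Hk1, Hk2, Gpi1, Pfkl, Pfkp, Aldoa, Tpi1, Pgk1, Eno1 and Ldha. They were chosen by gene symbol, as 10 of the 38991 gene identifiers in the deposited files, and each symbol matched 1 row per library. All 10 passed the filter on low values, which kept genes whose mean in iPKO or in iPHet reached 1 FPKM. FPKM gives sequenced fragments relative to the length of the transcript and the size of the library. The study compared mouse embryonic stem cells that lack Prmt5, an arginine methyltransferase, with control cells, using 4 RNA sequencing libraries of each. The knockout group, iPKO, was the male line PC4, and the control group, iPHet, whose name reads as heterozygous, was the male line PC1, for most experiments of the study. Both were C57BL/6 cells from blastocysts of embryonic day 3.5, derived on embryonic fibroblast feeders, used below passage 20 and kept in 2i ground state medium. Both received 2 µM 4-hydroxytamoxifen for 48 hours, the agent that induces the Prmt5 deletion, before a change of medium. With a single line named per genotype, line and genotype cannot be told apart. Separate cultures are not stated for the libraries of a genotype, so each p-value rests on a spread between libraries that may be technical.

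Glycolysis splits glucose into pyruvate through a series of enzyme steps that consume ATP in the upper part and return it in the lower part. Lactate dehydrogenase then turns pyruvate into lactate, which regenerates the NAD+ that the pathway needs. Most steps can be run by more than 1 isozyme, encoded by separate genes with different tissue preferences. Pluripotent stem cells are known for strong glycolysis. Many of these genes are known targets of the transcription factors HIF1 and MYC. In the mouse genome, several of them have processed copies elsewhere, which can take up or contribute sequencing reads.

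Prmt5 itself was checked first. Its FPKM was 11.8, 14.5, 12.4 and 15 in iPKO libraries 1 to 4, against 52.8, 70.8, 54.3 and 72.2 in iPHet libraries 1 to 4. The iPKO mean was 21.5% of the iPHet mean, and the groups did not overlap (log2 change −2.13 ± 0.13 SE, limma adjusted p = 0.000171; exact two-sided permutation p = 0.0286, the smallest that 4 against 4 can give). Transcript remained in iPKO, and in bulk RNA fewer cells with the transcript and less transcript per cell cannot be told apart.

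Libraries with odd and even numbers stood apart from each other within both genotypes, so the comparison was also made among odd libraries (1 and 3) and among even libraries (2 and 4). The labels do not say what the numbers stand for. Between libraries of 1 genotype, the median absolute log2 difference over genes was 0.061 to 0.070 where both were odd or both even, and 0.200 to 0.219 where 1 was odd and 1 even. For the 10 glycolysis genes the same medians were 0.054 to 0.071 and 0.161 to 0.271. The variance between libraries, over that implied by the authors' confidence bounds, was 1.44 to 1.94 within odd or even pairs and 12.4 to 18.6 across them. Per library, 26.4% to 33.2% of genes above 5 FPKM lay outside those bounds, so this ratio does not measure counting error. Summed FPKM was 411827 to 417539 in iPKO. In iPHet it was 458856 and 458690 in the odd libraries and 417672 and 421412 in the even libraries. Summed FPKM thus differed more between genotypes among odd than among even libraries, and its part in the odd and even changes below was not tested. Without counts in the files the depth of a library is unknown. All 10 of the pluripotency markers listed averaged at least 1 FPKM. Of these, 1 was called over all libraries, Sox2, at 70.1 ± 2.2 FPKM in iPKO and 91.8 ± 5.3 FPKM in iPHet (SD, n = 4 each; log2 −0.38, limma adjusted p = 0.00539). Over all libraries 15.8% of all tested genes were called. In odd libraries 2 of the 10 markers rose and 6 fell, where 19.2% of all tested genes rose and 29.1% fell. In even libraries 4 rose and 3 fell, where 21% of all tested genes rose and 26.4% fell. Of 9 feeder markers, 8 were below 1 FPKM in every library, with Postn, Lum and S100a4 listed at 0, and the list summed to 0.98 to 1.77 FPKM in iPKO and 1.42 to 2.44 FPKM in iPHet. Of 6 primitive endoderm markers, only Gata4 averaged at least 1 FPKM. The summed level of 6 trophoblast markers, mostly the keratins Krt8 and Krt18, was 114 to 132 FPKM in odd libraries and 30.8 to 37.6 FPKM in even libraries, with both genotypes in each range. Eomes, another gene of that list, had 14.3, 9.74, 14.9 and 9.92 FPKM in iPKO libraries 1 to 4, against 8.58, 6.11, 9.45 and 5.93 FPKM in iPHet libraries 1 to 4, without overlap (log2 0.63, limma adjusted p = 0.0567, and 0.000411 in odd and 0.000491 in even libraries). The part of these markers in the results below was not tested.

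Copies matter most for Pgk1 and Eno1. Of all stretches of 100 bases, the length of 1 read, in the longest coding transcript, 67.0% for Pgk1 and 59.0% for Eno1 also occurred in the annotated transcript of another gene. The share was 4.9% for Gpi1, 1.3% for Ldha, 0.8% for Tpi1 and 0% for Hk1, Hk2, Pfkl, Pfkp and Aldoa. These shares leave out genes that overlap the gene itself on the genome, such as Pitrm1, which overlaps Pfkp. The following stretches are shown because a read from either locus would match the other at nearly every base. They are from GENCODE vM21 transcripts on GRCm38 (mm10), read along the transcript, and capitals mark the bases at which a copy differs from the gene. The first pair is coding exon 8 of Eno1 (chr4:150246570-150246669, plus strand) and its copy Gm4735 (chr2:80837808-80837907, plus strand), which differ at 1 base of 100.
Eno1: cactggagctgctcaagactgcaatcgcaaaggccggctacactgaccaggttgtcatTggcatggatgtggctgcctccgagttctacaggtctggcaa
Gm4735: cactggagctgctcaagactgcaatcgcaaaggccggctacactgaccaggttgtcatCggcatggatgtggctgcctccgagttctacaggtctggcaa
The second pair is coding exon 4 of Gpi1 (chr7:34227138-34227237, minus strand) and its copy Gm1840 (chr8:5639848-5639947, plus strand), with 3 differences.
Gpi1: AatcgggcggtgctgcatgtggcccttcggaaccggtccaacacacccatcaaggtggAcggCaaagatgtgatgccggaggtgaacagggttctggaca
Gm1840: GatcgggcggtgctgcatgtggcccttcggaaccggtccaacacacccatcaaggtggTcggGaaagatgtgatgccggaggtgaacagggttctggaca

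Copies were counted where at least 300 bases aligned at 90% identity or more, leaving out genes that overlap on the genome. Ldha had 13, Eno1 8, Aldoa 5, Pgk1 4, Tpi1 2 and Gpi1 1. Little FPKM was assigned to them in the deposited values: the copies of Eno1 with a row summed to a mean of 4.35 FPKM over all libraries, which is 0.733% of the Eno1 mean, and this was the highest such share among the 10 genes. Gm4735 held most of it, with a mean of 3.5 FPKM. Adding the copies' FPKM to the gene's own changed the call of no gene. How the authors' counting treated reads that match several places is not given in the sources used here, so the levels of Pgk1 and Eno1 are uncertain in that respect. The deposited FPKM of Hk1 and Eno1 lay outside the authors' own confidence bounds in all 8 libraries, as did the FPKM of 26.4% to 33.2% of genes above 5 FPKM per library.

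**Figure D1:**
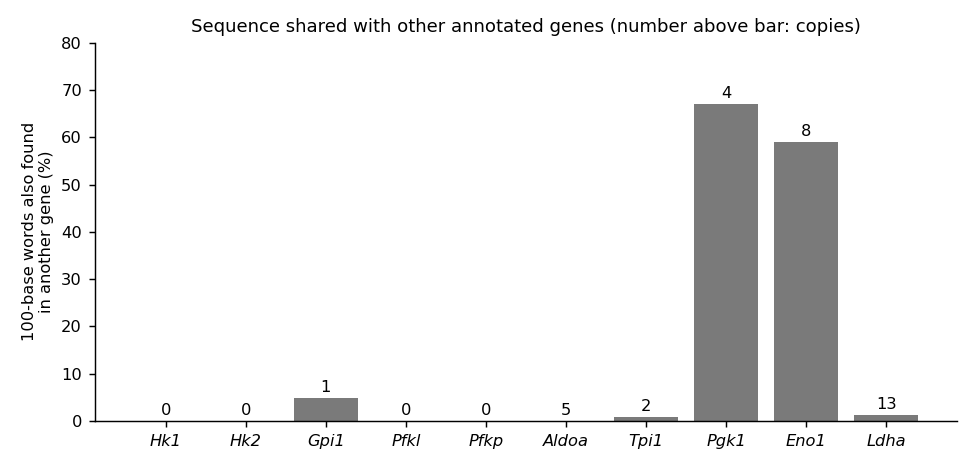
Share of 100-base words of each gene's longest coding transcript (vertical axis, percent) that also occur in an annotated transcript of another gene, with the number of copies above each bar. Genes that overlap on the genome, such as Pitrm1 with Pfkp, were left out. Pgk1 (67.0%) and Eno1 (59.0%) stand far above the other 8 genes, of which Gpi1 is highest at 4.9%.

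Across all 8 libraries, 2 of the 10 genes passed the test (limma on log2(FPKM + 1), Benjamini-Hochberg adjusted p under 0.05 over all 12462 tested genes), both lower in iPKO: Pfkp and Gpi1. Over all tested genes the share called was 15.8%, with 6.3% higher and 9.53% lower in iPKO, so the count is near the background. The median log2 change of the 10 genes was −0.08, and that of all tested genes −0.04. In the odd libraries, 4 genes fell (Pfkp, Aldoa, Pgk1 and Eno1) and 1 rose (Ldha), where 48.4% of all tested genes were called, 19.2% higher and 29.1% lower. The odd groups did not overlap for all 10 genes, as for 76.6% of all tested genes. In the even libraries, 3 fell (Hk2, Gpi1 and Pfkp) and 2 rose (Pfkl and Ldha), where 47.4% of all tested genes were called, 21% higher and 26.4% lower. The even groups did not overlap for 9 of the 10, as for 74.8% of all tested genes. The median log2 change of the 10 genes was −0.18 in odd libraries, beside −0.05 for all tested genes, and 0.07 in even libraries, beside −0.02. For 7 of the 10 genes the difference between the odd and even effects itself passed the test, against 28.5% of all tested genes. Pfkp and Ldha were called in the same direction in both, which held for 23% of all tested genes, and none of the 10 was called in opposite directions, which held for 5.34%. Under median-ratio scaling Aldoa was called in opposite directions, lower in odd and higher in even libraries. Averaging libraries 1 with 3 and 2 with 4, so that each genotype had 2 values, left 0 of the 10 genes and 7 of all tested genes called. With the library number as a block, 3 of the 10 genes and 3427 of all tested genes were called, against 2 and 1973 without it. That is 27.5% of all tested genes with the block, 10.9% higher and 16.6% lower in iPKO.

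**Figure D2:**
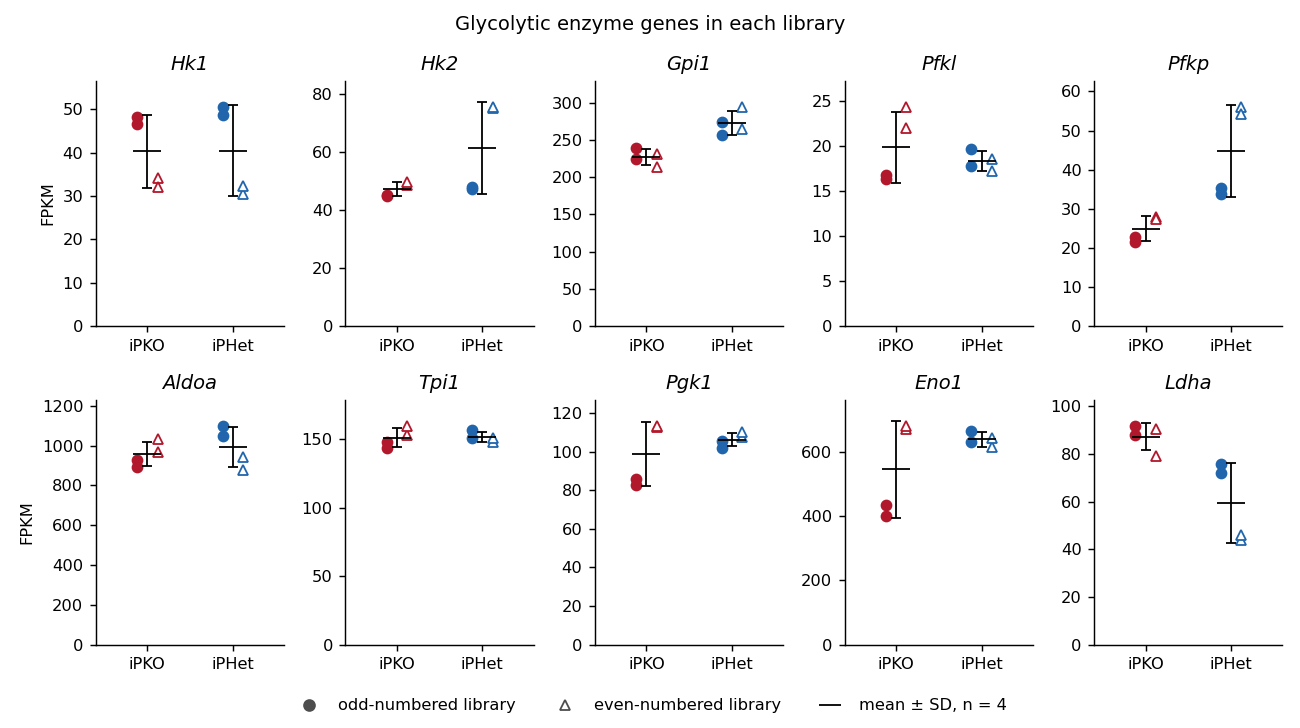
FPKM of the 10 genes (vertical axes from 0) in each iPKO library (red, left) and iPHet library (blue, right), with filled circles for odd and open triangles for even libraries and bars for mean ± SD (n = 4). All 4 iPKO values lie below all 4 iPHet values for Pfkp and Gpi1 and above them for Ldha, while for Hk1 the odd and even libraries separate more than the genotypes.

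In order of level per length, Aldoa was highest with a mean of 975 FPKM over all 8 libraries, followed by Eno1 (594), Gpi1 (250), Tpi1 (151), Pgk1 (102), Ldha (73.3), Hk2 (54.2), Hk1 (40.4), Pfkp (34.9) and Pfkl (19.1). The ranges of neighbours in this order did not overlap from Aldoa down to Pgk1, and did overlap from Pgk1 down to Pfkl. The 10 genes summed to 2201 ± 223 FPKM in iPKO and 2388 ± 112 FPKM in iPHet (SD, n = 4 each). By library the sum was 1997, 2336, 2028 and 2444 FPKM in iPKO libraries 1 to 4, against 2448, 2237, 2495 and 2372 FPKM in iPHet libraries 1 to 4. The odd iPKO libraries were thus the lowest, while the even libraries of both genotypes overlapped.

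Hexokinase makes glucose 6-phosphate and so keeps glucose in the cell. Hk1 (chr10:62268855-62379908, mm10) encodes the form found in most tissues. Hk1 had 46.7, 34.1, 48.4 and 32.2 FPKM in iPKO libraries 1 to 4, against 48.6, 30.4, 50.5 and 32.4 FPKM in iPHet libraries 1 to 4. The genotypes overlapped and no test called Hk1. The odd libraries were high and the even ones low in both genotypes, 1.43-fold in iPKO and 1.58-fold in iPHet. The log2 change over all libraries was 0.01 ± 0.21 (SE; limma adjusted p = 0.987), and the changes were −0.06 among odd libraries (adjusted p = 0.348) and 0.07 among even libraries (adjusted p = 0.254).

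Hk2 (chr6:82725025-82774454) encodes the inducible hexokinase typical of muscle, embryonic and tumour cells. It had 45.0, 48.4, 45.1 and 49.8 FPKM in iPKO libraries 1 to 4, against 47.9, 75.0, 47.2 and 75.4 FPKM in iPHet libraries 1 to 4. The iPHet even libraries were high and the other 6 libraries were close together. Hk2 fell in even libraries (log2 −0.60 ± 0.03 SE, limma adjusted p = 0.000109), while the odd change was −0.08 ± 0.03 (adjusted p = 0.075), and the difference between the 2 effects was 0.53 (adjusted p = 0.000988). Over all libraries the log2 change was −0.34 (adjusted p = 0.209, and 0.0373 with an odd/even term). Of the summed Hk1 and Hk2 FPKM, Hk2 made up 54.2 ± 6.5% in iPKO and 59.7 ± 12.5% in iPHet (SD, n = 4 each).

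Gpi1 (chr7:34202122-34230289) encodes glucose-6-phosphate isomerase, which forms fructose 6-phosphate. It had 224, 214, 240 and 231 FPKM in iPKO libraries 1 to 4, against 256, 265, 274 and 294 FPKM in iPHet libraries 1 to 4. Every iPKO library was below every iPHet library. Groups that do not overlap were found for 3 of the 10 genes and for 25.1% of all tested genes. Gpi1 fell in iPKO, with a log2 change of −0.26 ± 0.07 (SE; limma adjusted p = 0.0369). It fell in even libraries (−0.33, adjusted p = 0.0102), and the odd change was −0.19 (adjusted p = 0.0612). The difference between the odd and even effects was 0.14 (adjusted p = 0.334), but under quantile normalization it was 0.34 and called (adjusted p = 0.0433), with the odd change at 0.03 (adjusted p = 0.706). The 8-library call was lost without any 1 library, with adjusted p from 0.051 without iPHet 1 to 0.0913 without iPKO 2, under median-ratio scaling (0.0953) and quantile normalization (0.324), and with no filter on low values (0.0528). The even call was lost without iPHet 4 (adjusted p = 0.0514) or iPKO 2 (adjusted p = 0.0614).

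Phosphofructokinase, the main control point of glycolysis, is built from the liver, muscle and platelet subunits encoded by Pfkl, Pfkm and Pfkp. Pfkp fell in iPKO in both odd and even libraries, Pfkm rose in both, and Pfkl changed in the even libraries. Pfkp (chr13:6579768-6648777) had 21.5, 28.0, 22.8 and 27.3 FPKM in iPKO libraries 1 to 4, against 33.9, 56.0, 35.4 and 54.1 FPKM in iPHet libraries 1 to 4. The groups did not overlap, and the even libraries were the higher ones in both genotypes. The log2 change of Pfkp was −0.80 ± 0.19 over all libraries (SE; limma adjusted p = 0.0241), −0.62 ± 0.04 among odd libraries (adjusted p = 0.000216) and −0.97 ± 0.04 among even libraries (adjusted p = 7.54e-05), and the difference between the odd and even effects was 0.34 (adjusted p = 0.0108). The 8-library call was lost without iPHet 2 (adjusted p = 0.0545), iPHet 4 (0.0626), iPKO 1 (0.065) or iPKO 3 (0.0613). Pfkp shares 748 bases on the other strand with Pitrm1, which averaged 29.1 ± 2.7 FPKM in iPKO and 30.6 ± 1.5 FPKM in iPHet (SD, n = 4 each), and whether counting used strand is not given in the sources used here.

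Pfkl (chr10:77986947-78010083) had 16.4, 24.3, 16.8 and 22.0 FPKM in iPKO libraries 1 to 4, against 19.7, 17.2, 17.7 and 18.6 FPKM in iPHet libraries 1 to 4. The even iPKO libraries were the highest and the odd iPKO libraries the lowest, so the genotypes overlapped overall. Pfkl rose in even libraries (log2 0.35 ± 0.07 SE, limma adjusted p = 0.00925), the odd change was −0.16 ± 0.07 (adjusted p = 0.105), and the difference was −0.52 (adjusted p = 0.0145). The even call was lost without iPKO 2 (adjusted p = 0.0518), and that of the difference without iPKO 1 (adjusted p = 0.0552).

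Pfkm had 53.8, 50.6, 57.5 and 53.3 FPKM in iPKO libraries 1 to 4, against 37.1, 33.2, 38.7 and 31.9 FPKM in iPHet libraries 1 to 4. It rose over all libraries (log2 0.60 ± 0.08 SE, limma adjusted p = 0.00268), with 0.54 among odd and 0.66 among even libraries, and the groups did not overlap. The summed FPKM of the 3 subunit genes was 98.6 ± 5.3 in iPKO and 98.4 ± 8.2 in iPHet (SD, n = 4 each). Pfkm made up 54.8 ± 5.0% of that sum in iPKO and 36.2 ± 6.2% in iPHet, and Pfkp made up 25.2 ± 2.0% in iPKO and 45.1 ± 8.2% in iPHet. Pfkl made up 20.0 ± 3.0% in iPKO and 18.8 ± 2.4% in iPHet, with overlapping ranges.

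**Figure D3:**
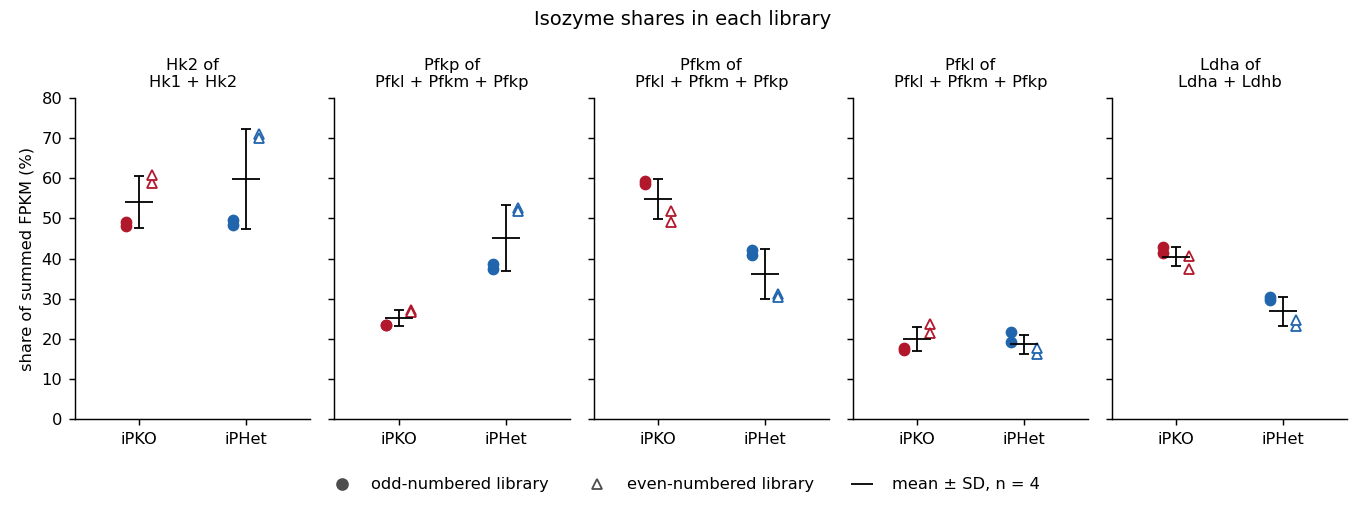
Share of summed FPKM (vertical axis, percent) held by an isozyme in each iPKO library (red, left) and iPHet library (blue, right), with filled circles for odd and open triangles for even libraries and bars for mean ± SD (n = 4). All 4 iPKO values lie below all 4 iPHet values for Pfkp and above them for Pfkm and Ldha.

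Aldolase cuts fructose 1,6-bisphosphate into a pair of triose phosphates, and triosephosphate isomerase converts one of these into the other. Aldoa (chr7:126795234-126800751), the aldolase of muscle and most embryonic tissue, had 895, 970, 929 and 1035 FPKM in iPKO libraries 1 to 4, against 1048, 879, 1100 and 945 FPKM in iPHet libraries 1 to 4. Odd iPKO libraries lay below odd iPHet libraries and even iPKO libraries above even iPHet libraries. The odd change of Aldoa was −0.24 ± 0.05 (log2, SE; limma adjusted p = 0.0116), the even change 0.14 ± 0.05 (adjusted p = 0.0714, and 0.17 with 0.0355 under median-ratio scaling) and the difference −0.37 (adjusted p = 0.0144), but under quantile normalization the odd change turned to 0.12 (adjusted p = 0.0772) and the difference to 0.10 (adjusted p = 0.287). The odd call was lost without iPHet 3 (adjusted p = 0.0739) or iPKO 1 (0.0723), and the call of the difference without iPHet 3 (0.0577), iPKO 1 (0.0578) or iPKO 4 (0.0511). Aldoa made up 98.6% of summed Aldoa and Aldoc FPKM in iPKO and 98.5% in iPHet.

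Tpi1 (chr6:124810586-124814296) varied least among the 10 genes relative to its mean, with an SD of 3.43% of the mean over all 8 libraries. It had 144, 153, 148 and 160 FPKM in iPKO libraries 1 to 4, against 151, 148, 157 and 151 FPKM in iPHet libraries 1 to 4. The genotypes overlapped, and Tpi1 was called in none of the 4 comparisons, though it was in even libraries under quantile normalization (0.12, limma adjusted p = 0.025). The log2 change was 0.00 ± 0.06 over all libraries (SE; limma adjusted p = 0.969), −0.08 among odd (adjusted p = 0.127) and 0.07 among even libraries (adjusted p = 0.168).

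Gapdh, the dehydrogenase that follows Tpi1 in the pathway, averaged 1526 ± 335 FPKM in iPKO and 1464 ± 79 FPKM in iPHet (SD, n = 4 each), and was not called (log2 0.04, limma adjusted p = 0.891). By library, Gapdh had 1227, 1563, 1332 and 1983 FPKM in iPKO libraries 1 to 4, against 1403, 1431, 1441 and 1580 FPKM in iPHet. Copies of Gapdh were not sought. Pgk1 (chrX:106187100-106203699) encodes phosphoglycerate kinase, which makes the first ATP that the pathway returns. It had 82.8, 112.5, 85.9 and 113.4 FPKM in iPKO libraries 1 to 4, against 101.7, 107.8, 105.3 and 110.1 FPKM in iPHet libraries 1 to 4. The odd iPKO libraries were the lowest and the even ones the highest. Pgk1 fell in odd libraries (log2 −0.29 ± 0.03 SE, limma adjusted p = 0.00111), the even change was 0.05 ± 0.03 (adjusted p = 0.247) and the difference −0.34 (adjusted p = 0.00474). Under quantile normalization the odd change of Pgk1 was −0.16 (adjusted p = 0.0085). Over all libraries the change was −0.12 (adjusted p = 0.515).

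Eno1 (chr4:150236721-150248879) encodes enolase 1, which makes phosphoenolpyruvate. It had 434, 672, 401 and 683 FPKM in iPKO libraries 1 to 4, against 668, 615, 633 and 645 FPKM in iPHet libraries 1 to 4. The odd iPKO libraries stood low and the other 6 libraries lay close together. Eno1 fell in odd libraries (log2 −0.64 ± 0.05 SE, limma adjusted p = 0.000301), while the even change was 0.10 ± 0.05 (adjusted p = 0.132). The difference between these effects was −0.74 (adjusted p = 0.00153), and over all libraries the change was −0.27 (adjusted p = 0.363). Under quantile normalization the odd change of Eno1 was −0.34 and the difference −0.37, both still called. The odd and even libraries of iPHet differed by 1.03-fold in Eno1.

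Of the genes between these steps and pyruvate, Pgam1, a phosphoglycerate mutase, averaged 154.5 ± 24.5 FPKM in iPKO and 149 ± 6.2 FPKM in iPHet (SD, n = 4 each), with a difference between the odd and even effects of −0.45 (log2, limma adjusted p = 0.0108). Pgam1 was called in opposite directions, lower in odd (−0.19, adjusted p = 0.0377) and higher in even libraries (0.27, adjusted p = 0.0113). The odd call of Pgam1 was lost under median-ratio scaling (adjusted p = 0.123) and quantile normalization (0.534), with no filter on low values (0.0629) and without the trend (0.0579). Eno2, the neuronal enolase, had 20.4, 9.90, 19.9 and 7.0 FPKM in iPKO libraries 1 to 4, against 10.1, 4.19, 11.9 and 4.52 FPKM in iPHet libraries 1 to 4. It was not called over all libraries (log2 0.81, limma adjusted p = 0.226), and was with the library number as a block (adjusted p = 0.00887). Eno2 rose in odd (0.82, adjusted p = 0.00533) and in even libraries (0.80, adjusted p = 0.00613). Pkm, which encodes pyruvate kinase, had 599, 808, 627 and 829 FPKM in iPKO libraries 1 to 4, against 905, 921, 913 and 947 FPKM in iPHet libraries 1 to 4. The groups did not overlap, the adjusted p over all libraries was 0.0668 without and 0.0449 with the block (log2 −0.38), and Pkm fell in odd (−0.57, adjusted p = 0.000136) and in even libraries (−0.19, adjusted p = 0.00515). Under quantile normalization the Pkm changes were −0.25 in odd and −0.31 in even libraries. Aldoc, the aldolase of brain, averaged 13.8 ± 0.4 FPKM in iPKO and 15.3 ± 2.3 FPKM in iPHet (SD, n = 4 each) and was not called over all libraries (log2 −0.12, adjusted p = 0.458). Aldoc fell in odd libraries (−0.30, limma adjusted p = 0.0214), and the even change was 0.05 (adjusted p = 0.601). The odd call of Aldoc was lost without iPHet 1, iPHet 3, iPKO 1 or iPKO 3.

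**Figure D4:**
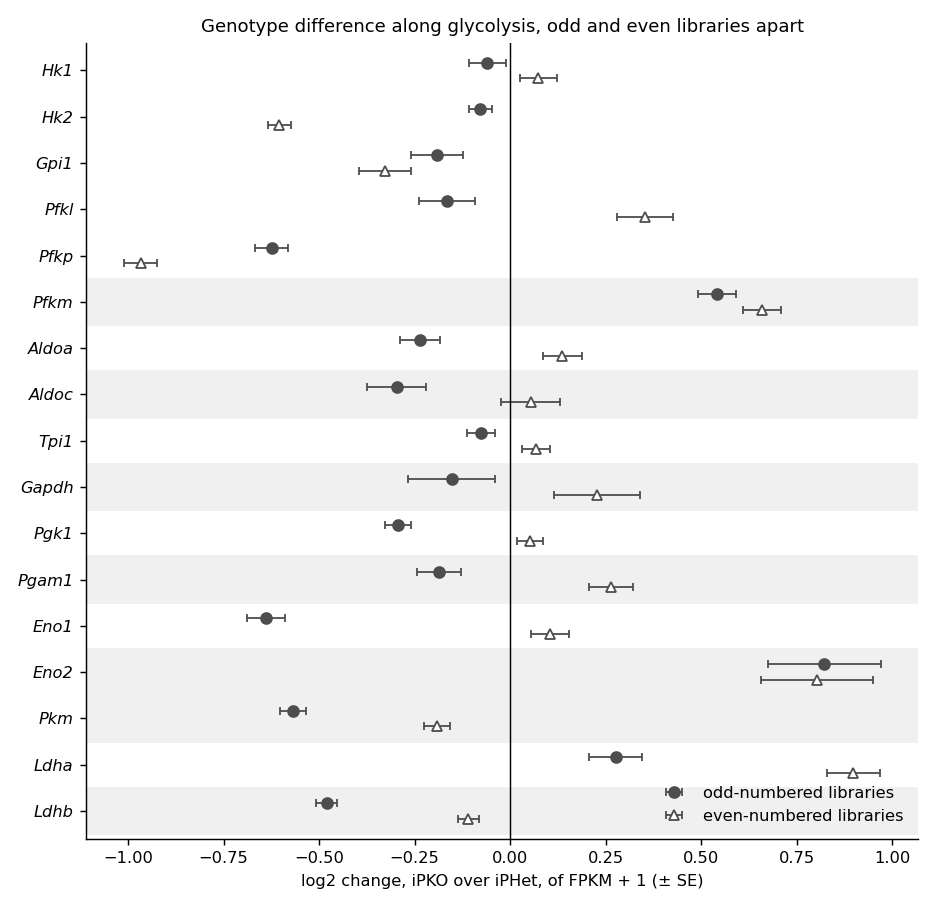
Log2 change of FPKM + 1, iPKO over iPHet (horizontal axis), with bars for ± SE, among odd libraries (filled circles) and even libraries (open triangles), for the 10 genes and for 7 other glycolysis genes (grey rows) in pathway order. For Hk1, Pfkl, Aldoa, Aldoc, Tpi1, Gapdh, Pgk1, Pgam1 and Eno1 the odd value is negative and the even value positive. Hk2, Gpi1, Pfkp, Pkm and Ldhb are negative in both, and Ldha, Pfkm and Eno2 are positive in both. Under quantile normalization the odd value of Aldoa turns to 0.12, and those of Hk1, Gpi1, Tpi1 and Gapdh also turn positive.

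Ldha (chr7:46841475-46855627) encodes the lactate dehydrogenase subunit typical of glycolytic tissue. It had 87.9, 79.0, 91.8 and 90.3 FPKM in iPKO libraries 1 to 4, against 72.1, 43.7, 75.9 and 46.0 FPKM in iPHet libraries 1 to 4. Every iPKO library was above every iPHet library, and the even iPHet libraries were the lowest. Ldha rose in odd libraries (log2 0.28 ± 0.07 SE, limma adjusted p = 0.0182) and in even libraries (0.90 ± 0.07, adjusted p = 0.000344), and the difference between these effects was −0.62 (adjusted p = 0.00708). Over all libraries the change of 0.59 ± 0.19 was not called (adjusted p = 0.068), and with the library number as a block it was (adjusted p = 0.0425). It was also called under median-ratio scaling (adjusted p = 0.0402), under quantile normalization (0.0381) and without iPHet 3 (0.0415). The odd call was lost without iPHet 1 (adjusted p = 0.0941), iPHet 3 (0.0511), iPKO 1 (0.0559) or iPKO 3 (0.0943).

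Ldhb, which encodes the other main lactate dehydrogenase subunit, had 124, 133, 123 and 132 FPKM in iPKO libraries 1 to 4, against 172, 145, 174 and 141 FPKM in iPHet libraries 1 to 4. The groups did not overlap. Its log2 change was −0.29 (limma adjusted p = 0.0509, and 0.0462 without iPHet 4), −0.48 among odd libraries (adjusted p = 0.000133) and −0.11 among even libraries (adjusted p = 0.0199). The even call of Ldhb was lost without iPHet 2 (adjusted p = 0.0855), iPKO 2 (0.0638) or iPKO 4 (0.0625), and under median-ratio scaling (0.0615), quantile normalization (0.347) and limma without the trend (0.0566). Ldha and Ldhb together summed to 215 ± 5.2 FPKM in iPKO and 217 ± 34 FPKM in iPHet (SD, n = 4 each). These means hide opposite directions. In odd libraries the sum was 212 and 215 FPKM in iPKO, against 244 and 250 FPKM in iPHet. In even libraries it was 212 and 223 FPKM in iPKO, against 189 and 187 FPKM in iPHet. Ldha made up 40.5 ± 2.3% of that sum in iPKO and 26.9 ± 3.6% in iPHet, with no overlap.

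Promoter windows of Ldha and Pfkp are shown because these were the genes called in the same direction in odd and in even libraries. Each window holds the 250 bases before an annotated start, from RefSeq on GRCm38.p6, written along the gene's strand. Capitals mark ACGTG or GCGTG on either strand, the core letters of the HIF binding motif, and CACGTG, the E-box that MYC can bind, overlaps ACGTG. The Ldha window (chr7:46845554-46845803, plus strand) has 3 such places, of which 2 are CACGTG. Another Ldha window (chr7:46846832-46847081), not shown, has 1 place, a GCGTG, and no CACGTG. The Pfkp window (chr13:6648772-6649021, minus strand) has 3 places, all GCGTG.
Ldha: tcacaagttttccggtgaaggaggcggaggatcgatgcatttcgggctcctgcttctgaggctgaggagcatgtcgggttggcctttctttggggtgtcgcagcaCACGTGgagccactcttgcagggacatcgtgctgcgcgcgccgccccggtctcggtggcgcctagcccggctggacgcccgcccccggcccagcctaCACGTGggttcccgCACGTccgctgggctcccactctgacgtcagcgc
Pfkp: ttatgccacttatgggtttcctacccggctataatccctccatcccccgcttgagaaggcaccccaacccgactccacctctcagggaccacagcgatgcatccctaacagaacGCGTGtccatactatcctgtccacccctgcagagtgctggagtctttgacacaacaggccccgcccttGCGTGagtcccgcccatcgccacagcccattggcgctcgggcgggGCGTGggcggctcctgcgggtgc
Of 32851 promoter windows of this length, 38.6% hold ACGTG or GCGTG and 6.02% hold CACGTG. All 10 genes matched a window, 16 windows in all, and 12 of these 16, from 8 of the 10 genes, hold ACGTG or GCGTG. The 38.6% counts windows, and no such share was taken by gene. Windows of Aldoa and of Eno1 overlap, so the same letters can count more than once. Hk1 counts only through a window 17941 bases from the start of its main annotated transcript. A match describes letters in the window and says nothing of binding in these cells.

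Few genes around the pathway passed the test over all 8 libraries, where 15.8% of all tested genes did. More passed with odd and even libraries taken apart, as among all tested genes. In odd libraries 19.2% of all tested genes rose and 29.1% fell, and in even libraries 21% rose and 26.4% fell. Among other isozymes and steps of glycolysis, 12 of 22 were tested, 1 rose (Pfkm) and 1 fell (Adpgk, an ADP-dependent glucokinase, at 13.3 ± 1.1 FPKM in iPKO and 18.9 ± 2.8 FPKM in iPHet, SD, n = 4 each), with a median log2 change of −0.04. In odd libraries 3 of the 12 rose and 5 fell, and in even libraries 4 rose and 5 fell. With the library number as a block, 4 rose and 2 fell. Under that block 10.9% of all tested genes rose and 16.6% fell, which is the background for the block counts of each list below. The Adpgk call (log2 −0.46, limma adjusted p = 0.0261) was lost without iPHet 1 (adjusted p = 0.0669), iPHet 3 (0.06), iPKO 1 (0.0558), iPKO 2 (0.0661) or iPKO 4 (0.0667).

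Of 7 tested glucose and lactate transporters, 1 fell, Slc2a8, an intracellular sugar transporter, at 4.10 ± 0.18 FPKM in iPKO and 6.63 ± 0.56 FPKM in iPHet (SD, n = 4 each; log2 −0.58, limma adjusted p = 0.0027). Among odd libraries 0 transporters rose and 5 fell, and among even libraries 2 rose and 4 fell. With the block, 1 transporter rose and 2 fell. Of 9 tested genes that switch glycolytic flux, 1 rose, Pfkfb1, which makes and breaks down fructose 2,6-bisphosphate, at 6.88 ± 0.77 FPKM in iPKO and 5.19 ± 0.20 FPKM in iPHet (log2 0.34, adjusted p = 0.0271). The Pfkfb1 call was lost under quantile normalization (adjusted p = 0.0605) and without any of iPHet 1 (0.0707), iPHet 2 (0.0533), iPHet 3 (0.062), iPHet 4 (0.0636), iPKO 2 (0.0688) and iPKO 4 (0.0562). Among odd libraries 3 of the switch genes rose and 1 fell, and among even libraries 3 rose and 2 fell. With the block, 3 of the switch genes rose and 1 fell. Of 14 tested genes of mitochondrial pyruvate use, limma called 0 over all libraries, and 2 fell with the block. In odd libraries 1 of them rose and 4 fell, and in even libraries 2 rose and 3 fell.

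The branches that leave glycolysis for pentose phosphates and hexosamines had 13 tested genes, of which 3 fell and 0 rose, with a median log2 change of −0.22 beside −0.04 for all tested genes. Tkt, the transketolase of the pentose phosphate pathway, had 120, 115, 116 and 118 FPKM in iPKO libraries 1 to 4, against 155, 146, 157 and 156 FPKM in iPHet libraries 1 to 4. These groups did not overlap, and odd and even libraries lay together within each genotype (log2 −0.39 ± 0.05 SE, limma adjusted p = 0.00301). Rpe, ribulose-phosphate epimerase, averaged 16.5 ± 0.6 FPKM in iPKO and 20.3 ± 0.6 FPKM in iPHet (log2 −0.29, adjusted p = 0.0102). Pgm3, a mutase of hexosamine synthesis, averaged 5.30 ± 0.30 FPKM in iPKO and 7.02 ± 0.42 FPKM in iPHet (SD, n = 4 each; log2 −0.35, adjusted p = 0.0132). In odd libraries 0 of the 13 genes rose and 7 fell, and in even libraries 1 rose and 7 fell. With the block, 6 of the 13 genes fell, where 16.6% of all tested genes fell.

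Of 15 tested genes of glycogen and other sugars, 1 fell, Gbe1, the glycogen branching enzyme, at 1.25 ± 0.13 FPKM in iPKO and 2.92 ± 0.59 FPKM in iPHet (SD, n = 4 each; log2 −0.79, limma adjusted p = 0.00539), and 3 fell with the block. Of these sugar genes, 3 rose and 4 fell in odd libraries, and 2 rose and 3 fell in even libraries. Of 19 tested genes of the HIF1 and hypoxia response outside glycolysis, 1 rose and 1 fell. Ankrd37 rose, at 2.82 ± 0.62 FPKM in iPKO and 0.857 ± 0.486 FPKM in iPHet (log2 1.07, adjusted p = 0.0154, and 1.79 with a pseudocount of 0.1). Ndrg1, a stress-induced gene, fell, at 6.99 ± 1.55 FPKM in iPKO and 10.2 ± 0.57 FPKM in iPHet (log2 −0.51, adjusted p = 0.0403). The Ndrg1 call was lost under both scalings (adjusted p of 0.068 for median-ratio and 0.093 for quantile) and without any of iPHet 1 (0.0916), iPHet 2 (0.0833), iPHet 3 (0.0665), iPHet 4 (0.0932), iPKO 1 (0.0983) and iPKO 3 (0.0592). Among odd libraries 4 of the hypoxia genes rose and 4 fell, and among even libraries 7 rose and 4 fell. With the block, 2 of the hypoxia genes rose and 2 fell.

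Of 12 tested genes of MYC and growth control, 1 fell, which was Myc itself. Myc had 0.714, 1.47, 0.645 and 1.24 FPKM in iPKO libraries 1 to 4, against 2.23, 2.49, 2.02 and 2.87 FPKM in iPHet libraries 1 to 4. The groups did not overlap (log2 −0.77 ± 0.16 SE, limma adjusted p = 0.0164), and at this level the log2(FPKM + 1) scale understates the change, which was −1.23 with a pseudocount of 0.1. Of these 12 genes, 2 rose and 4 fell in odd libraries, and 1 rose and 2 fell in even libraries. With the block, 2 of these genes rose and 2 fell. For the 10 glycolysis genes, the split between odd and even libraries was wider than 1.5-fold for 1 gene within iPKO (Eno1) and for 4 genes within iPHet (Hk1, Hk2, Pfkp and Ldha), where 19.4% of all tested genes in iPKO and 18.9% in iPHet passed that fold.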

How the data were processed

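Libraries were made from total RNA with the TruSeq RNA kit and read in pairs of 100 bases on a HiSeq instrument (Illumina), per the labels' protocols. The authors deposited FPKM for every gene, with confidence bounds on either side, per the file headers. Trimmomatic and the build mm10 are named per the submitters' processing notes. Not given in the sources used here are the aligner, the quantifying program, its treatment of reads with several matches and any scaling across libraries.

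Each file held 39013 rows for 38991 identifiers, and rows of 19 identifiers at more than 1 locus were summed. The 12462 genes whose mean in iPKO or in iPHet reached 1 FPKM were tested with limma 3.58.1 and an intensity trend in R 4.3.3 (with data.table, version 1.17.8), on log2(FPKM + 1), with Benjamini-Hochberg adjustment over all of them and a threshold of 0.05. The 8-library comparison had no covariate. A model of 4 groups (genotype by odd or even number) gave the odd and even effects and their difference, with 1 estimate of spread from all 8 libraries. The fits were tested on simulated data. These held no general shift between odd and even libraries, so that test does not cover the split seen here. The genes and lists were chosen with earlier results of these data known. Named genes were the 10 glycolysis genes, Prmt5, 7 fixed isozyme genes and the called genes of 8 pathway lists, at most 4 per list. The genes Eno1b and Tigar were matched by the symbols Gm5506 and 9630033F20Rik.

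Same-numbered libraries of both genotypes deviated together, with correlations of 0.104, 0.162, 0.204 and 0.107 for numbers 1 to 4. The main fits did not pair the libraries, and the library number was a block in an alternative fit only. Among libraries of unlike number but the same parity, correlations were 0.077 to 0.124, so the pairing by number is hardly separable from the odd and even split, and it comes from the data, not the labels. Copies were found with blastn 2.17.0 among GENCODE vM21 transcripts. Figures were drawn with matplotlib 3.10.9. Alternatives covered pseudocount, filter, scaling, trend, block, an odd/even term, averaged libraries, copies and each library left out. Splice forms were not analysed here. One stretch of shared sequence is not reported here.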

Additional observations from a re-analysis of the deposited data

Results flagged for a closer look

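The genotype effect differed between odd and even libraries, by the test of that difference, for 7 of the 10 glycolysis genes and 3 other named genes. The values are log2 changes, iPKO over iPHet, in odd minus even libraries, with adjusted p from limma over 12462 genes. The difference was 0.5268 for Hk2 and 0.343 for Pfkp, whose iPKO deficit was larger in even libraries, and −0.5179 for Pfkl. It was −0.3723 for Aldoa, −0.3447 for Pgk1, −0.7435 for Eno1 and −0.6223 for Ldha. Outside the 10 genes it was −0.3765 for Pkm, −0.4509 for Pgam1 and −0.3705 for Ldhb. Their adjusted p ran from 0.000988 for Hk2 to 0.0145 for Pfkl. For all tested genes the share called was 28.5%. A further rule compared, in 20 groups of 4 values, the gap between an end value and its neighbour with the range. It flagged no library. Where odd and even libraries split into pairs, the wide gap lies in the middle, so this rule cannot flag a library there.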

How the results depend on the processing

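Over all 8 libraries the count of glycolysis genes called was 2. It was 1 with no filter on low values, 4 with an odd/even term, 0 with averages of libraries 1 with 3 and 2 with 4, 0 with averages plus that term, and 0 to 2 with each library left out (0 without iPKO 1, iPKO 3, iPHet 2 or iPHet 4). For all tested genes the count of 1973 was 3427 with the replicate block, 4729 with an odd/even term, 7 with averages, 6 with averages and the term, and 1264 to 1416 with a library left out (1264 without iPHet 4 and 1309 without iPKO 1). Leaving out a library gave 3 to 6 of the 10 genes in odd libraries (3 without iPKO 1 or iPHet 3), 3 to 5 in even libraries (3 without iPKO 2) and 5 to 7 for the difference, whose count over all genes was 2186 to 2647 (2186 without iPKO 1, 2260 without iPKO 3 and 2262 without iPHet 3). A lone library is then assumed to vary like the others. Prmt5 kept its log2 change of −2.13 with averages, at an adjusted p of 0.191, and 0.0809 with the term. Under quantile normalization Aldoa turned to 0.12 (adjusted p = 0.0772) in odd libraries and to 0.10 (0.287) for the difference, and Pkm to 0.0557 (0.54) for the difference, while Gpi1, not called in odd libraries, turned to 0.03 there. The cause was not tested. Of all genes called, 785 were higher and 1188 lower in iPKO, against 960 and 863 under median-ratio scaling and 936 and 946 under quantile normalization. In odd libraries these were 2398 and 3631, against 3003 and 2883, and 3021 and 2860. For the difference 1608 and 1948 became 2061 and 1606 under quantile normalization. In the 8 pathway lists, averages left 0 genes called in each, and leaving out a library gave 1 to 3 called among the other isozymes, against 2 with all libraries. The block changed no other call among the 10 genes than that of Ldha. Absolute depth is unknown, which leaves counting error unquantified.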
